A study of Mus musculus with 13 samples.

Results

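The full cocktail of 5 compounds (5C) was compared with its solvent, dimethyl sulfoxide (DMSO), across all genes of bulk RNA libraries. The comparison rested on 4 of the 13 libraries of the series, the 2 labelled DMSO and the 2 labelled 5C. In the other libraries 1 compound was left out of 5C. Those libraries entered the same fit and helped to set the spread, the genes tested and the scaling between libraries. All cells were dHeps, damaged hepatocytes of genotype WT isolated from mice injured with carbon tetrachloride (CCl4). They were kept in serum-free Hepatocyte Maintenance Medium for 16 days with DMSO or with 5C. The study's methods describe isolation by perfusion with collagenase and Pronase and filtering, and describe no sort of the cultured cells. The labels do not say whether the 2 libraries of a group came from separate mice or cultures, so p-values measure the spread between these libraries, which may be technical. In the text each pair of values is given for library A and then library B of a group, and the letters pair nothing across groups.

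The compounds act on different proteins. GSK429286A is a kinase inhibitor. CID755673 inhibits the protein kinase D family. ETC-1002 activates the energy sensor AMPK and, once coupled to coenzyme A by the enzyme encoded by Slc27a2, inhibits ATP citrate lyase, which supplies acetyl groups for lipid synthesis. Forskolin activates adenylate cyclases and so raises the second messenger cAMP. Salidroside is a plant glycoside. Hepatocytes are known for secreting plasma proteins and for modifying, conjugating and exporting drugs, bile acids and hormones, and they lose much of that gene expression in culture and in chronic injury.

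Total counts ran from 30672924 to 36541583 in the 4 libraries. Levels are given as FPKM, which are counts scaled by gene length and by the total of the library. Alb, the plasma protein albumin, was at 9711 and 8604 FPKM in DMSO and at 9437 and 9425 FPKM in 5C, where the groups overlapped. The 24 hepatocyte markers summed to 15435 and 14101 FPKM in DMSO and to 15473 and 15263 FPKM in 5C, so RNA of the labelled cell type was abundant in every library. Macrophage RNA was abundant too. The 29 macrophage markers summed to 6311 and 6411 FPKM in DMSO and to 769 and 859 FPKM in 5C. Markers of T and NK cells and of B cells summed to under 1 FPKM in each library, and the endothelial genes Pecam1 and Cdh5 were at or near 0. The endothelial list as a whole summed to 133 and 140 FPKM in DMSO and to 55.6 and 55.3 FPKM in 5C, with 2 of 15 tested called lower. These 2 held much of the DMSO sum. Stab1, which macrophages express too, fell from 76.2 and 78.4 FPKM to 4.71 and 5.67 FPKM. The Fc receptor gene Fcgr2b fell from 20.7 and 22.4 FPKM to 2.77 and 2.98 FPKM. Fewer cells of a type and less RNA per cell cannot be told apart in bulk libraries.

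**Figure D1:**
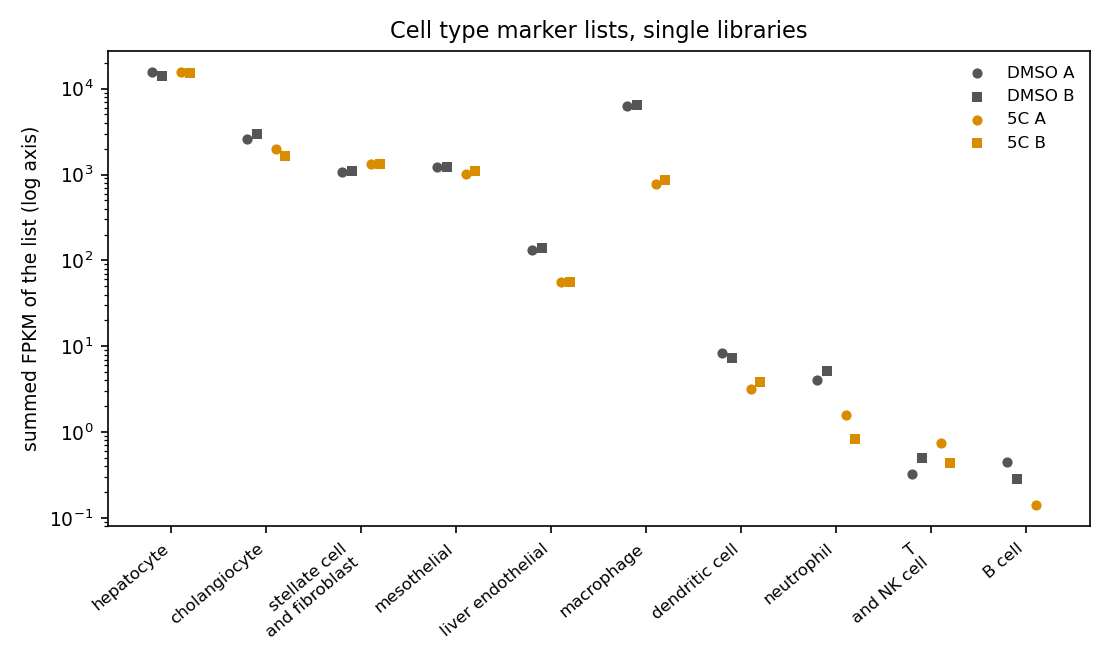
Summed FPKM (log axis) of the marker lists of 10 cell types in the 4 libraries, DMSO in grey and 5C in orange, with circles for library A and squares for library B. The macrophage sum is the one above 100 FPKM with the widest gap between the groups, 6311 and 6411 FPKM against 769 and 859 FPKM, and the B cell sum of 5C B is 0 and cannot be drawn on a log axis.

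A gene was called when its Benjamini-Hochberg adjusted p in edgeR's quasi-likelihood test was under 0.05 and its log2 fold change, 5C minus DMSO, was beyond 1. Of 19884 genes tested, 905 were called (4.55%). More genes were lower in 5C than higher, with 331 called higher (1.66%) and 574 called lower (2.89%), around a median log2 fold change of 0.01 over all genes tested. These shares are the background for every gene list that follows, but they differed by level. Genes were binned by the higher of the 2 group means. Under 1 FPKM, 0.719% of 6957 genes were called higher and 0.417% lower. From 1 to 10 FPKM the shares were 2.27% and 4.09%, and from 10 to 100 FPKM 1.9% and 4%. At 100 FPKM or more they were 3.1% and 7.85%, so lists of abundant genes have a higher background. Protein-coding genes were called more often than long noncoding RNA genes, at 5.58% of 15595 and 0.951% of 1997. The called genes took a small part of the measured RNA. Those called higher rose from 1.06% to 3.13% of all FPKM, and those called lower fell from 8.71% to 2.17%. Among the 10 genes with the highest mean level in each group, 8 were shared, including Alb, the iron carrier Trf, Spp1, Lgals1 and the mitochondrial mt-Co1. The other two of DMSO were the lipoprotein gene Apoe and the lysozyme gene Lyz2, a macrophage product. Without any 1 library, 116 of the 331 higher calls and 372 of the 574 lower calls were kept every time, and leaving out a library leaves its group with a single one. The count called higher was then between 153 (without DMSO B) and 213 (without 5C B).

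The compounds' own targets came first. Of 22 genes that encode the targets, 1 was called higher and 1 lower (2 lower without 5C A), and both encode adenylate cyclases, the enzymes that forskolin activates. Adcy2 was at 0.876 and 0.747 FPKM in DMSO and at 3.49 and 3.39 FPKM in 5C, a log2 fold change of 2.01 ± 0.36 (SE, adjusted p = 0.00135). Adcy7, a form found in blood cells, went the other way, from 5.17 and 4.85 FPKM to 1.25 and 1.18 FPKM (-2.12 ± 0.29, adjusted p = 9.66e-05). Both calls held without any 1 library. The protein kinase D and AMPK genes were not called. The former differed by 0.48 (Prkd1), -0.19 (Prkd2) and 0.22 (Prkd3) on the log2 scale and the AMPK catalytic subunits by 0.04 (Prkaa1) and 0.56 (Prkaa2), each with an adjusted p of 0.41 or more. Acly, which encodes ATP citrate lyase, had 35.0 and 32.3 FPKM in DMSO and 29.2 and 30.4 FPKM in 5C (-0.25 ± 0.21, adjusted p = 0.628). Slc27a2 had 11.4 and 11.8 FPKM against 17.0 and 13.8 FPKM (0.34 ± 0.24, adjusted p = 0.525).

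**Figure D2:**
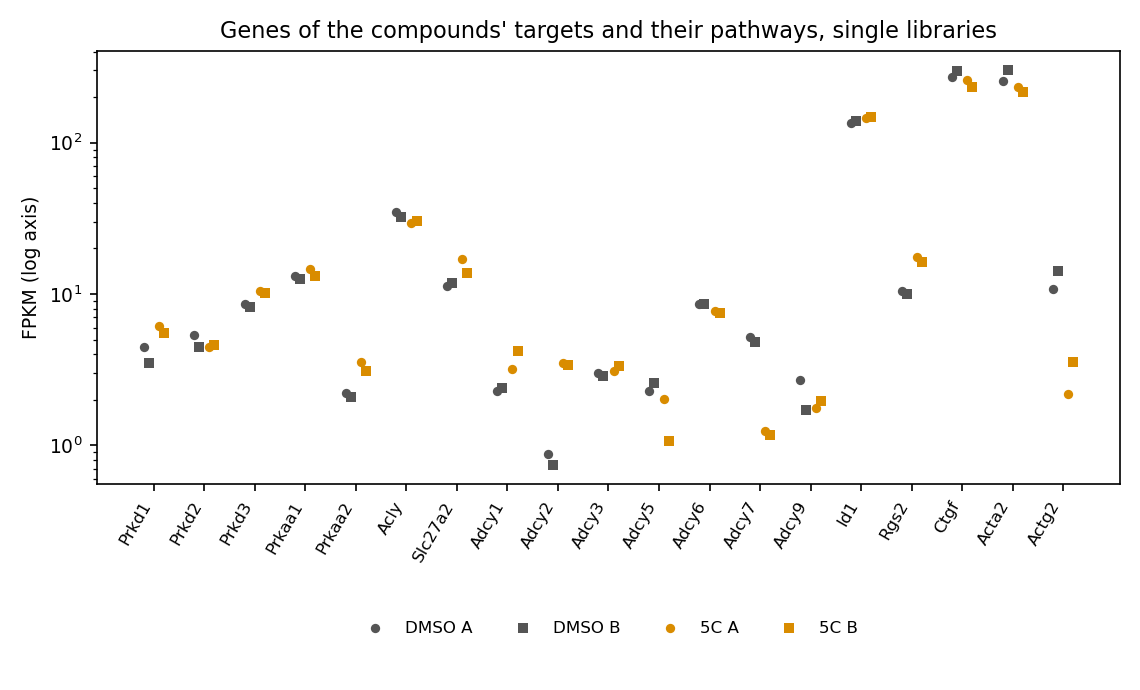
FPKM (log axis) of genes that encode the compounds' targets and of some genes of their pathways in each library, DMSO in grey and 5C in orange, circles for library A and squares for library B. Adcy2 is higher and Adcy7 and Actg2 are lower in both 5C libraries, while Acly, Id1 and Ctgf lie within a narrow range.

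Genes known to answer to cAMP were not called on day 16. In the list of 19 cAMP response genes, 0 were called in edgeR's test and the median log2 fold change was 0.27. The transcription factor gene Crem, a standard reporter of the pathway, had 2.79 and 2.94 FPKM in DMSO and 3.56 and 3.03 FPKM in 5C. Id1, the most abundant of them, had 134 and 140 FPKM against 145 and 147 FPKM. A pair of them passed the adjusted p but not the fold, in the downward direction. The phosphatase gene Dusp1 had 72.2 and 69.6 FPKM in DMSO and 40.1 and 43.4 FPKM in 5C (adjusted p = 0.00512), and the clock gene Per1 had 17.5 and 16.6 FPKM against 11.6 and 11 FPKM (adjusted p = 0.0208). Among 17 genes that relay cAMP, Pkia and Pkib, which encode inhibitors of protein kinase A, were called in opposite directions (1.10 and -1.96), and neither call held without any of the 4 libraries, with adjusted p up to 0.18 for Pkia and up to 0.162 for Pkib.

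Targets of the cytoskeletal transcription factor SRF were represented by 24 genes, of which 0 were called higher and 3 lower, with a median log2 fold change of -0.23. The smooth muscle actin gene Actg2 had 10.8 and 14.1 FPKM in DMSO and 2.20 and 3.58 FPKM in 5C (-2.18 ± 0.38, adjusted p = 0.001), and it was called lower. The smooth muscle myosin gene Myh11 fell from 4.63 and 4.96 FPKM to 1.27 and 1.47 FPKM (-1.88 ± 0.36, adjusted p = 0.0023), a call lost without 5C A (adjusted p = 0.0578). The calponin gene Cnn1 was called at -1.47, and that call was lost without any 1 of the 4 libraries (adjusted p up to 0.286). The abundant actins differed little, with Actb at 1037 and 1078 FPKM in DMSO and 1008 and 1219 FPKM in 5C. Among 22 genes of small GTPase signalling to the cytoskeleton, Rac2, which is restricted to blood cells, fell from 16.2 and 16.8 FPKM to 1.66 and 2.55 FPKM (-3.04 ± 0.30, adjusted p = 2.33e-06). Rac3 and Rhoc were called lower too, and both calls were lost without any 1 library (adjusted p up to 0.233 and 0.133). Of 16 targets of YAP and TEAD, which respond to cell tension, 0 were called, and Ctgf had 273 and 298 FPKM against 259 and 234 FPKM.

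Lipid synthesis, the pathway of ATP citrate lyase, did not yield a call in either list. The 18 genes of fatty acid synthesis had a median log2 fold change of -0.02 and the 21 of sterol synthesis had 0.20, with 0 called in each by edgeR. The fatty acid desaturase gene Scd2 was at 135 and 128 FPKM in DMSO and 137 and 127 FPKM in 5C. Genes of fatty acid oxidation and targets of its regulator PPAR alpha differed from this. Of 23 tested, 4 were called higher (17.4%) and 0 lower, with a median of 0.24. Fabp1, the fatty acid binding protein of the hepatocyte cytosol, rose from 5.63 and 5.92 FPKM to 42.2 and 28 FPKM (2.53 ± 0.30, adjusted p = 1.67e-05). The thioesterase gene Acot1 rose from 5.46 and 6.25 FPKM to 15.8 and 17.3 FPKM (1.43 ± 0.19, adjusted p = 7.81e-05). Both calls held without any 1 library. Ehhadh, a peroxisomal enzyme gene, was called at 1.48, a call lost without DMSO B (adjusted p = 0.101). Pdk4, whose product spares glucose, was called at 1.18, a call lost without any 1 of the 4 libraries (adjusted p from 0.103 to 0.188). The count of 4 fell to 2 without DMSO B.

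Genes that conjugate or hydrolyse drugs and lipids were among the lists with large shares called higher. Carboxylesterases cleave ester drugs and lipids in the endoplasmic reticulum. Of 12 tested, 5 were called higher (41.7%) and 0 lower, the log2 fold change was above 0 in 12 of 12, and the median was 3.06. Ces2a was at 1.22 and 1.18 FPKM in DMSO and at 27.9 and 27.8 FPKM in 5C (4.46 ± 0.20, adjusted p = 4.15e-10). Ces1d was at 1.82 and 1.07 FPKM against 21.8 and 22.5 FPKM (3.86 ± 0.26, adjusted p = 3.37e-08), and Ces1c at 2.13 and 1.53 FPKM against 24.2 and 28.3 FPKM (3.76 ± 0.31, adjusted p = 4.37e-07). For each of these genes the 5C libraries lay far above the DMSO libraries. Ces1g rose from 0.137 and 0.134 FPKM to 2.99 and 3.29 FPKM, and Ces2c was called at 1.52, a call lost without DMSO A or DMSO B (adjusted p up to 0.0744). These genes lie on chromosome 8, Ces2a at chr8:105460630-105468266 and Ces1d at chr8:93892693-93924466 of GRCm39. They are near-identical copies in part, so reads may be shared among them.

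Glutathione S-transferases couple glutathione to reactive compounds. Of 24 tested, 4 were called higher (16.7%) and 0 lower, with a median log2 fold change of 0.54. Gstm3 was at 2.77 and 1.39 FPKM in DMSO and at 156 and 155 FPKM in 5C. Its log2 fold change of 6.13 ± 0.38 (adjusted p = 1.82e-08) ranged from 5.73 to 6.74 without 1 library. Cytochrome P450 genes, which the rule for named genes left out, included larger differences, such as Cyp3a11 at 0.708 and 0.542 FPKM against 173 and 191 FPKM (8.10 ± 0.35). Gstm1, which lies near Gstm3 on chromosome 3, was already abundant and rose from 144 and 125 FPKM to 412 and 347 FPKM (1.43, adjusted p = 0.000306). Gsta2 was called at 2.92, a call lost without DMSO A (adjusted p = 0.102). Gsta1 was called at 2.50 from uneven libraries, 0.2 and 1.48 FPKM in DMSO and 2.40 and 7.39 FPKM in 5C, and was lost without DMSO A or 5C B (adjusted p up to 0.492). The count of 4 fell to 2 without DMSO A. Other abundant members were not called, such as Gsta3 at 59.1 and 61.7 FPKM against 67.6 and 57.6 FPKM and Gstp1 at 126 and 96.5 FPKM against 116 and 118 FPKM.

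Glucuronosyltransferases attach glucuronic acid to bilirubin, steroids and drugs. When all tested genes were grouped by the letters of their symbols, and groups of at least 10 genes were kept (201 of them), Ugt had the largest share called higher, with 7 of 15 (46.7%), followed by Ces with 5 of 12. Ugt2b5 rose from 4.29 and 4.02 FPKM to 18.9 and 20.4 FPKM (2.17, adjusted p = 6.81e-05). Ugt2b34 rose from 9.29 and 8.65 FPKM to 26.4 and 27.3 FPKM, and Ugt2b35 and Ugt2b36 were called at 1.96 and 1.58. These calls held without any 1 library, and these genes sit together on chromosome 5 and share sequence. The sulfotransferases, another conjugating family, had 0 of 12 called by edgeR with a median of 0.68, and the abundant Sult1a1 passed the adjusted p but not the fold (124 and 114 FPKM against 188 and 198 FPKM, 0.62, adjusted p = 0.0387). Among the 105 letter groups with no call were Aldh, Atg and Cdc.

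Transporters moved in both directions, with 9 of 317 solute carriers called higher (2.84%) and 19 lower (5.99%) and a median log2 fold change of 0.00. Slco1a4, which takes up organic anions at the sinusoid, rose from 0.162 and 0.1 FPKM to 3.35 and 2.52 FPKM (4.39 ± 0.37, adjusted p = 5.14e-07). Of 47 ABC transporters, 1 was called higher (2.13%) and 2 lower (4.26%). Abcb11, the bile salt export pump, rose from 0.377 and 0.312 FPKM to 1.93 and 2.49 FPKM (2.60 ± 0.31, adjusted p = 2.23e-05). Abcd2 and Abcg1 were called lower, at -2.56 and -1.81. These calls held without any 1 library. The uptake gene Slco1b2 was called at 1.65 but not without DMSO A, DMSO B or 5C A (adjusted p up to 0.115). The lower solute carriers included Slc11a1, an ion transporter of the macrophage phagosome, which fell from 15.6 and 17.1 FPKM to 2.44 and 3.73 FPKM (-2.48, adjusted p = 7.68e-06). Counts in both directions fell when a library was left out, to 3 to 6 higher and 11 to 14 lower. The amino acid catabolism list had 1 of 30 called. That gene was Bhmt, which remakes methionine from homocysteine, at 5.86 and 6.58 FPKM against 40.3 and 39.4 FPKM (2.61 ± 0.24, adjusted p = 1.25e-06).

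**Figure D3:**
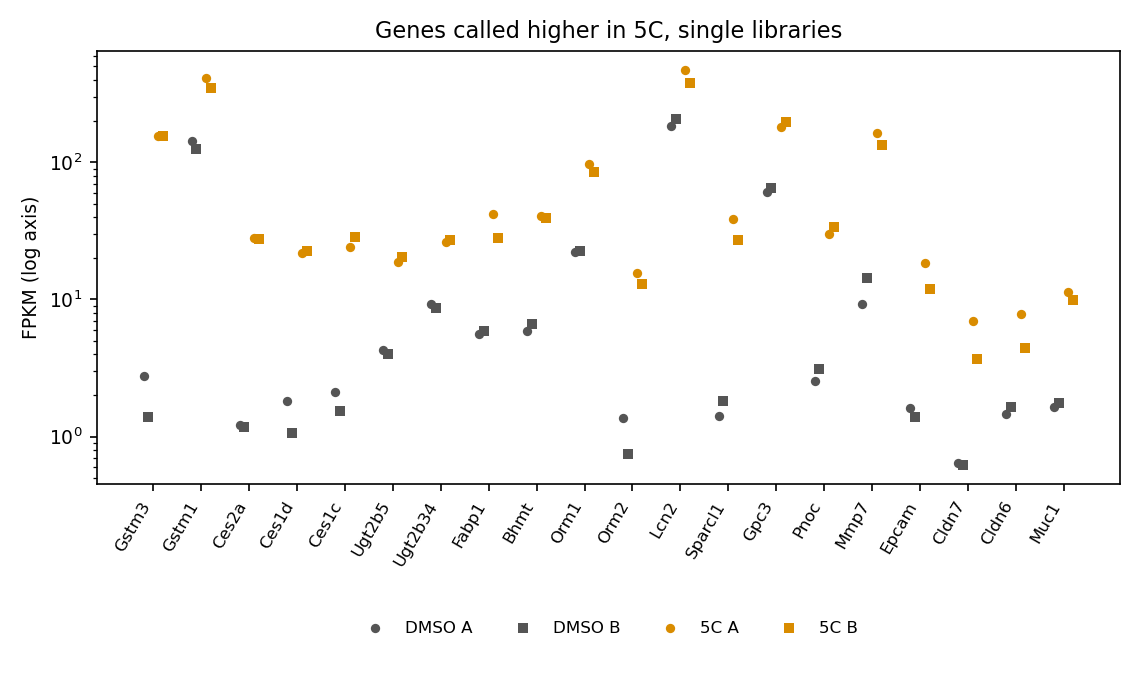
FPKM (log axis) of 20 genes called higher in 5C in each library, DMSO in grey and 5C in orange, circles for library A and squares for library B. The genes were chosen from those called, all 331 of which have both 5C values above both DMSO values (59.3% of all genes tested do not overlap in either direction), and in Cldn7, Cldn6 and Epcam the point of 5C A lies well above that of 5C B.

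Genes of the acute phase list, most of which encode plasma proteins that hepatocytes secrete in inflammation, were called higher in 5 of 16 (31.2%) and lower in 1, with a median log2 fold change of 0.79 and 15 of 16 above 0. Orm1, an orosomucoid, rose from 22.1 and 22.6 FPKM to 96.5 and 84.8 FPKM (1.94 ± 0.26, adjusted p = 6.35e-05). Its neighbour Orm2 rose from 1.38 and 0.745 FPKM to 15.6 and 12.9 FPKM (3.65 ± 0.44, adjusted p = 2.58e-05), and the copies may share reads. Steap4, the gene of a membrane metal reductase, rose from 67.6 and 69.5 FPKM to 163 and 177 FPKM (1.23, adjusted p = 0.00169), and Fgl1 rose from 8.44 and 9.34 FPKM to 21.8 and 20.6 FPKM. The siderophore-binding gene Lcn2 had 185 and 209 FPKM against 467 and 376 FPKM, a call lost without DMSO A or 5C A (adjusted p up to 0.0808). Saa3 moved the other way, from 107 and 105 FPKM to 13.2 and 21.1 FPKM (-2.70 ± 0.39, adjusted p = 0.000174), and in mice macrophages also make it. The haptoglobin gene Hp, at 813 and 823 FPKM against 1229 and 1350 FPKM, passed the adjusted p but not the fold.

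Complement genes were called in both directions, with 3 of 23 higher and 3 lower and a median of 0.14. C7, a part of the membrane attack complex, had 3 and 2 counts in DMSO against 1.24 and 1.19 FPKM in 5C, which is at least 36.5-fold higher against a floor of 3 counts per library. C8g and Mbl2 were called at 1.16 and 1.59, and both calls were lost without any 1 library (adjusted p up to 0.201 and 0.236). Cfp, the properdin gene, fell from 26.8 and 27.5 FPKM to 2.92 and 3.51 FPKM (-3.15 ± 0.31, adjusted p = 2.03e-06). The anaphylatoxin receptor genes C5ar1 and C3ar1 fell by 2.44 and 2.08 on the log2 scale. The C1q chain genes, which macrophages express and which are outside this list, were called lower as well, with C1qa at 825 and 772 FPKM in DMSO and at 58.7 and 58.2 FPKM in 5C (-3.85 ± 0.39, adjusted p = 3.44e-06). C3 itself had 548 and 503 FPKM against 822 and 816 FPKM and was not called. C1qa is itself 1 of the 29 macrophage markers, of which 25 were called lower. The part of macrophages in the values of Cfp, C5ar1, C3ar1 and C1qa was not tested.

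Calls among genes of bile duct and other epithelia leaned on single libraries. Of 13 cholangiocyte markers, 4 were called higher and 0 lower, with a median of 1.13. Epcam, an adhesion molecule of bile ducts and liver progenitors, had 1.63 and 1.39 FPKM in DMSO and 18.4 and 11.9 FPKM in 5C (3.24 ± 0.73, adjusted p = 0.00918), and the mucin gene Muc1 had 1.64 and 1.75 FPKM against 11.3 and 9.95 FPKM (2.57, adjusted p = 0.0106). Both were lost without DMSO A, DMSO B or 5C A, with adjusted p up to 0.113 for Epcam and 0.118 for Muc1. The count of 4 became 1 without DMSO A, DMSO B or 5C A and 6 without 5C B. The defining duct keratins were level, with Krt19 at 68.0 and 70.5 FPKM against 77.1 and 71.9 FPKM and Krt7 at 35.7 and 35.6 FPKM against 28.9 and 30.6 FPKM. Spp1, which encodes osteopontin and was the most abundant of these markers, passed the adjusted p but not the fold, at 2488 and 2845 FPKM against 1842 and 1517 FPKM (-0.74 ± 0.16, adjusted p = 0.00535). The summed level of the markers was therefore lower in 5C, at 2008 and 1662 FPKM against 2605 and 2965 FPKM in DMSO.

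Claudins seal tight junctions between epithelial cells. Of 16 tested, 4 were called higher (25%) and 0 lower, with a median log2 fold change of 0.94. Cldn7 had 0.645 and 0.626 FPKM in DMSO and 7.02 and 3.68 FPKM in 5C (2.99 ± 0.71, adjusted p = 0.0147). Cldn6 had 1.46 and 1.64 FPKM against 7.86 and 4.41 FPKM (1.91 ± 0.36, adjusted p = 0.00227). In both, 5C A was well above 5C B, and without 5C A the count of claudins called was 0, with an adjusted p of 0.139 for Cldn7 and 0.0628 for Cldn6. Without DMSO A or DMSO B it was 2. The most abundant claudin, Cldn3, had 44.8 and 46.6 FPKM against 40 and 38.4 FPKM. The wider list of 26 epithelial junction genes had 0 called by edgeR and a median of 0.27. Of 8 aquaporins tested, Aqp8, a water channel of the hepatocyte canaliculus, rose from 1.31 and 0.933 FPKM to 6.65 and 6.79 FPKM (2.50 ± 0.35, adjusted p = 0.000135), and Aqp1, found in bile ducts and vessels, was called at 2.72, a call lost without any 1 library (adjusted p up to 0.206).

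Promoters of called genes were searched for the motif TGACGTCA, the cAMP response element, because forskolin raises cAMP. Sequences were taken from RefSeq on GRCm38.p6, from 250 bases before to 50 after a start, for 13107 tested genes, and both strands were read. The element lay in 3.17% of all these genes, in 8 of 226 called higher (3.54%) and in 4 of 444 called lower (0.901%). Among the 8 were Cldn6, Cldn7, the carboxypeptidase gene Cpb2 and the granin gene Scg2. The 250 bases before the start of Cldn7 (chr11:69965171-69965420, plus strand) and 30 bases around the match of Cldn6 (chr17:23679314-23679343, plus strand) show where it lies in the claudin genes, with the element in capitals, 38 bases and 40 bases before the start. A match is a description of letters and not a site known to be bound.
Cldn7: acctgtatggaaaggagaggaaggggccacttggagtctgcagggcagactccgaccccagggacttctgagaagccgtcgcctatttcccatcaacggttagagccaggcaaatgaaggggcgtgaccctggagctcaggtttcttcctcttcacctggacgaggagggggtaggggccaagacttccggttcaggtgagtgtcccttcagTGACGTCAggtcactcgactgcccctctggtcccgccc
Cldn6: aggtggtccagTGACGTCAttgagacttta

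The AP-1 motif TGANTCA, read by the Fos and Jun factors, lay in 7.23% of promoters in all, in 9.73% of those called higher and in 11.7% of those called lower. Jun itself fell from 59.1 and 55.4 FPKM to 29.2 and 28.6 FPKM (-1.06 ± 0.21, adjusted p = 0.00363), a call lost without DMSO A, 5C A or 5C B (adjusted p up to 0.0602). A match was present before the starts of Mmp7, which encodes an epithelial matrix protease, and of Orm2. In capitals it stands 63 bases before the start of Mmp7 (chr9:7691840-7692089, plus strand) and 207 bases before that of Orm2 (chr4:63362199-63362448, plus strand). The short form TGACG of the cAMP element, which the full element contains, lay in 31.8% of all promoters and in 18.6% and 19.4% of those called higher and lower. The other motifs searched were CCAAT (41.9% of all, 35.4% higher, 39.4% lower), the TEAD motif CATTCC (15.2%, 18.1% and 14%), the SRF CArG box (1.62%, 1.33% and 1.58%) and the E2F motif TTTGGCGC (0.999%, 0.885% and 0.225%).
Mmp7: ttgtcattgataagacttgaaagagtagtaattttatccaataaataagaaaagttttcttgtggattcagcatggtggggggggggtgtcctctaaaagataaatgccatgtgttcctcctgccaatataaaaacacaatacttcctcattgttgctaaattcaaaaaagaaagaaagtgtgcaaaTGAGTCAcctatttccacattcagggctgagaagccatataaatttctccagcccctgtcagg
Orm2: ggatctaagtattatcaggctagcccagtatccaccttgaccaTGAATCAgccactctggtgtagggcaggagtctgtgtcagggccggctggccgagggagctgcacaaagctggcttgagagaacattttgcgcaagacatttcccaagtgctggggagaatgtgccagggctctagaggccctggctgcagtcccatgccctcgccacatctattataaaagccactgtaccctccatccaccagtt

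Mmp7 had 9.31 and 14.4 FPKM in DMSO and 163 and 133 FPKM in 5C (3.57 ± 0.78, adjusted p = 0.00788), and the call was lost without DMSO A or DMSO B (adjusted p up to 0.127). Among 24 metalloproteases and their inhibitors it was 1 of 2 called higher (0 without DMSO A or DMSO B and 1 without 5C A or 5C B), with 1 lower, and the list's median was -0.05. Matrix proteins changed gene by gene. Of 39 collagen chains, 1 was called higher and 1 lower, with a median of 0.04. These were Col15a1, of basement membranes, at 1.28 and 1.25 FPKM against 3.92 and 3.71 FPKM, and Col14a1, of fibrils, at 8.25 and 6.96 FPKM against 2.42 and 2.95 FPKM. The main fibril collagen gene Col1a1 had 383 and 400 FPKM against 448 and 467 FPKM and was not called (0.15, adjusted p = 0.747). Of 41 matricellular proteins and proteoglycans, 5 were called higher and 2 lower (median 0.08), with 3 higher without DMSO B and 1 lower without each library. Sparcl1, a secreted relative of SPARC, rose from 1.42 and 1.82 FPKM to 38.3 and 27.1 FPKM (4.26 ± 0.24, adjusted p = 5.91e-09). The glypican gene Gpc3, abundant in fetal liver, rose from 60.5 and 65.3 FPKM to 182 and 196 FPKM (1.51 ± 0.18, adjusted p = 1.76e-05). Sdc3, a syndecan, fell from 27.5 and 24.1 FPKM to 5.47 and 6.22 FPKM (-2.21, adjusted p = 4.57e-06). The 19 markers of stellate cells and fibroblasts, which make much of the liver's matrix, summed to 1076 and 1087 FPKM in DMSO and 1308 and 1328 FPKM in 5C. Of these, 3 were called higher and 2 lower. The lower call of Thy1 (-1.94) held without any 1 library, and that of Des (-1.13) did not. Macrophage markers fell in the same libraries. The part of any of these cells in the values of the matrix genes was not tested.

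Signalling genes were called in small numbers. Of 32 growth factors 3 were called higher and 2 lower, and 0 were called without DMSO B. Vegfc, a lymphatic growth factor, had 13.3 and 12.6 FPKM against 28.4 and 26.3 FPKM (1.00 ± 0.17, adjusted p = 0.00109), with a fold that fell short of the threshold without DMSO B or 5C A, down to 0.96. Wnt2, which liver endothelium makes, was the only call in edgeR's test among the 36 genes of the Wnt list, at 14.6 and 15.4 FPKM against 4.70 and 4.07 FPKM (-1.85 ± 0.24, adjusted p = 5.87e-05). Wnt7a, a ligand gene outside that list, was called at 2.16, a call lost without any 1 of the 4 libraries (adjusted p up to 0.317). In the TGF beta and BMP list 1 of 33 was called higher and 3 lower. The higher call, Inhba (1.03), was lost without any 1 library. Among the lower calls, those of Grem1 (-1.88) and Inhbb (-1.05) were not kept every time a library was left out. Tgfbi, at 42.7 and 36.7 FPKM against 13.8 and 15.1 FPKM, was called lower without any 1 library. Macrophage markers fell beside it, and their part was not tested. The Notch and Hedgehog list had 0 of 18 called by edgeR and a median of 0.00. The list of immediate early genes, which growth and stress signals induce, also held genes of feedback on MAPK signalling. It had 0 of 28 called higher and 4 lower (14.3%), with a median of -0.25. Klf4 fell from 29.9 and 28 FPKM to 9.83 and 6.43 FPKM (-1.91 ± 0.25, adjusted p = 5.74e-05), and Etv1 fell from 1.07 and 0.811 FPKM to 0.117 and 0.135 FPKM (-2.98, adjusted p = 7.78e-05). Klf2 was called at -1.11 and lost without any 1 library (adjusted p up to 0.268). The count of 4 fell to 2 without DMSO A or 5C A.

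Genes of the eicosanoids moved in both directions. Of 28 genes that make or sense prostaglandins and leukotrienes, 2 were called higher (7.14%) and 8 lower (28.6%), with a median of -0.17. Ptges, which makes prostaglandin E, rose from 0.869 and 0.579 FPKM to 4.52 and 4.12 FPKM (2.50 ± 0.27, adjusted p = 7.11e-06), and Ptgfr, a prostaglandin F receptor gene, rose from 0.210 and 0.246 FPKM to 1.41 and 1.18 FPKM (2.43 ± 0.33, adjusted p = 0.0001). Genes of leukotriene synthesis moved the other way. Alox5, which starts it, fell from 6.41 and 6.41 FPKM to 1.02 and 0.706 FPKM, and its partner Alox5ap fell from 31.3 and 31.2 FPKM to 4.24 and 5.34 FPKM (-2.78, adjusted p = 1.08e-06). Ltc4s, the leukotriene C synthase gene, had 10.8 and 12.9 FPKM in DMSO and 0.441 and 0.321 FPKM in 5C (-5.02 ± 0.84, adjusted p = 0.000759). Pla2g7, which degrades platelet-activating factor, fell from 111 and 108 FPKM to 15.6 and 15.5 FPKM (-2.89, adjusted p = 1.66e-08), and the thromboxane synthase gene Tbxas1 fell by 2.97 on the log2 scale. The receptor genes Ptger2 and Ptger4 were lost without any 1 library (adjusted p up to 0.293 and 0.173), and the other 6 lower calls were kept. These 6 genes are expressed in blood cells, macrophage markers fell beside them, and the part of those cells was not tested.

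Receptor families of innate immunity had large shares called lower. Fc receptors bind antibodies, and of 9 tested 6 were called lower (66.7%) with a median of -2.51. Fcgr1 fell from 9.79 and 10.4 FPKM to 0.805 and 0.805 FPKM (-3.72 ± 0.34, adjusted p = 9.73e-07), and Fcgrt, the recycling receptor that hepatocytes express too, fell from 140 and 149 FPKM to 54.6 and 63.3 FPKM (-1.37, adjusted p = 0.000658). C-type lectins, which recognise sugars on microbes and dying cells, had 8 of 21 called lower (38.1%) and a median of -2.06. Clec4a3 had 7 and 6.79 FPKM against 0.314 and 0.540 FPKM, and Clec10a had 11.1 and 13.2 FPKM against 1.10 and 0.887 FPKM. Toll-like receptors had 4 of 11 called lower (36.4%), and 3 of the 4 sense nucleic acids in endosomes. Tlr7 fell from 18.0 and 16.3 FPKM to 2.96 and 3.22 FPKM (-2.55 ± 0.21, adjusted p = 4.03e-07). Interleukin receptors had 5 of 33 called lower (4 to 6 without 1 library) and 1 higher (0 without DMSO A, DMSO B or 5C B and 2 without 5C A). None of the Fc receptor, lectin and Toll-like receptor counts changed without any 1 library. Macrophage markers fell in the same libraries, in 25 of 29 genes, and their part in these counts was not tested.

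Among single genes, the scavenger receptor gene Stab1, of liver sinusoids and macrophages, fell from 76.2 and 78.4 FPKM to 4.71 and 5.67 FPKM (-3.97 ± 0.25, adjusted p = 1.90e-08). Chil3, a lectin secreted by activated macrophages, fell from 541 and 577 FPKM to 41.5 and 51.1 FPKM (-3.67 ± 0.22, adjusted p = 1.66e-08). The ficolin gene Fcna fell from 173 and 215 FPKM to 16.2 and 15.0 FPKM, and the formyl peptide receptor gene Fpr1 from 7.62 and 7.49 FPKM to 0.450 and 0.443 FPKM. Of the 29 macrophage markers, 0 were called higher and 25 lower (86.2%), with a median of -2.95, and 23 were called lower without each library in turn. The 4 not called were Cd14, at 53.9 and 53.1 FPKM against 59.1 and 52.8 FPKM, and Clec4f, Timd4 and Cx3cr1, which were under 1 FPKM in all libraries. Apoe, singled out after its values were seen, fell from 3918 and 3752 FPKM to 710 and 816 FPKM (-2.40 ± 0.33, adjusted p = 0.00011). Hepatocytes and macrophages both express it, and the part of either was not tested.

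**Figure D4:**
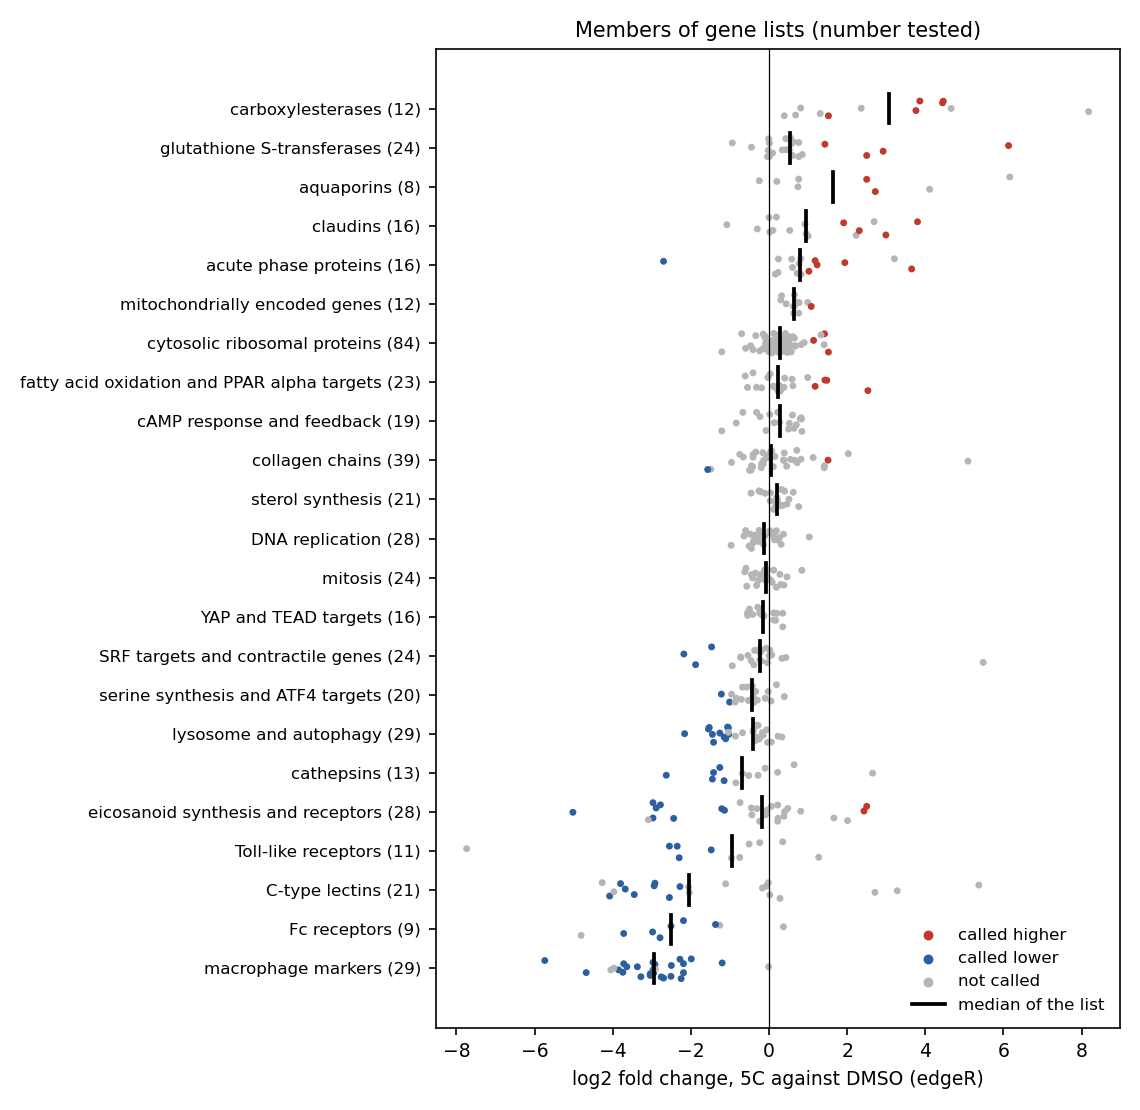
Log2 fold change of each tested member of 23 gene lists, 5C against DMSO, with called members in colour and a bar at the list's median. Carboxylesterases lie to the right of 0 in all 12 members (median 3.06) and macrophage markers lie to the left in all 29 (median -2.95), as do Fc receptors in 8 of 9 (median -2.51), while the cAMP response, sterol synthesis, DNA replication and YAP lists hold no called member. Points far from 0 that are not called belong to genes with few counts.

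Several abundant lysosomal genes were called lower. Of 29 lysosome and autophagy genes, 0 were called higher and 11 lower (37.9%), with a median of -0.41 and 26 of 29 below 0. Ctsd, an aspartic protease of the lysosome, fell from 799 and 925 FPKM to 330 and 347 FPKM (-1.42 ± 0.24, adjusted p = 0.000686), and Ctsb fell from 534 and 550 FPKM to 199 and 218 FPKM (-1.45 ± 0.16, adjusted p = 8.93e-06). Psap, which encodes saposins for lipid breakdown, fell from 933 and 987 FPKM to 470 and 469 FPKM (-1.11 ± 0.15, adjusted p = 6.95e-05). Gusb, a sugar-cleaving enzyme, fell by 1.55 on the log2 scale. The cathepsin Ctss, which trims antigens in antigen-presenting cells, fell from 851 and 874 FPKM to 140 and 153 FPKM (-2.63 ± 0.17, adjusted p = 3.37e-08), and 5 of 13 cathepsins were called lower. Without 1 library the lysosomal count was 9 or 10. The proton pump of the lysosome had 0 of 18 subunits called by edgeR, with a median of -0.23. Macrophages hold many lysosomes, their markers fell in the same libraries, and their part was not tested.

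The motif TCACGTGA, an E-box shared by many lysosomal genes, lay in 1.88% of all promoters in 2 of 226 genes called higher (0.885%) and in 4 of 444 genes called lower (0.901%). The latter were Ctsa, Ctsd, Dpp7 and Ifi30, each with a lysosomal product. The match of Ctsd lies 99 bases before the start in the 30 bases printed (chr7:142387908-142387937, minus strand), with the E-box in capitals.
Ctsd: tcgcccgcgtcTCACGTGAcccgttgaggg

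Housekeeping and growth lists were mostly without calls. Of the 89 pathway and family lists, 23 had no member called, 16 had higher calls only, 24 lower only and 26 both. DNA replication had 0 of 28 called by edgeR and a median of -0.13, with Pcna at 22.6 and 23 FPKM against 16.8 and 19.3 FPKM, and mitosis had 0 of 24 and a median of -0.07. In that list Ccnb2, a mitotic cyclin gene, had 3.45 and 4.13 FPKM against 6.79 and 7.42 FPKM and passed the adjusted p (0.0389) but not the fold (0.84). Among cell cycle brakes, Cdkn1c was called at 1.30 (4.34 and 5.49 FPKM against 11.6 and 13.8 FPKM), a call lost without DMSO A (adjusted p = 0.06). Cdkn2a, a senescence marker, was called at -1.12 (44.0 and 49.7 FPKM against 25.4 and 19.9 FPKM), a call lost without any 1 library (adjusted p up to 0.295). Proteasome subunits (38), tRNA synthetases (37), heat shock proteins (14), MHC class I genes (12), nuclear receptors (29) and tubulins (14) had 0 called by edgeR, with medians from -0.24 to 0.32. Targets of the stress factor ATF4 and serine synthesis genes had 2 of 20 called lower and 17 of 20 below 0 (median -0.44), and both calls leaned on single libraries. Nupr1 was lost without DMSO A, DMSO B or 5C B (adjusted p up to 0.187) and Chac1 without any 1 library (adjusted p up to 0.202).

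Mitochondrially encoded genes were above 0 in 12 of 12, with a median of 0.65, and 1 was called. That was mt-Nd6, at 703 and 726 FPKM against 1396 and 1776 FPKM (1.08 ± 0.26, adjusted p = 0.014), lost without DMSO A, DMSO B or 5C B (adjusted p up to 0.19). The median was 0.31 and the count 0 when GC content and gene length were corrected for. The 89 nuclear-encoded respiratory subunits had a median of 0.16 and 1 call. Cytosolic ribosomal protein genes, 84 in number, had a median of 0.27 and 3 called higher, the short genes Rpl39, Rps21 and Rps29. In these, library B of each group exceeded library A, as in Rpl39 at 164 and 219 FPKM against 452 and 623 FPKM, and the count of 3 fell to 0 in DESeq2 and without DMSO A, DMSO B or 5C B.

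A few genes were near absent in 1 group. At most 3 counts in both libraries of a group and at least 1 FPKM in both of the other were found in 15 genes with the higher level in 5C and 9 with the higher level in DMSO, of which 2 each were called. Beside C7, Cyp3a59, a cytochrome P450 gene with close copies, had 2 and 0 counts in DMSO and 94 and 67 counts in 5C, at least 28-fold higher. Ms4a4c, of a blood cell membrane family, was at 1.90 and 1.78 FPKM in DMSO and had 2 and 2 counts in 5C, at least 34.5-fold lower, and the pseudogene Bambi-ps1 was at least 16.0-fold lower. Most of the others were small RNA genes with few counts. The imprinted long RNA gene H19, active in fetal liver and singled out after its values were seen, rose from 62.3 and 49.9 FPKM to 302 and 313 FPKM (2.38 ± 0.19, adjusted p = 2.27e-07). Pnoc, which encodes the precursor of a neuropeptide, rose from 2.55 and 3.09 FPKM to 30.1 and 33.5 FPKM (3.42 ± 0.24, adjusted p = 6.24e-08). Both calls held without any 1 library. Afp, the alpha-fetoprotein gene, another gene of fetal liver, was called in the other direction, at 48.5 and 52.0 FPKM against 24.5 and 25.9 FPKM (-1.07 ± 0.24, adjusted p = 0.0103), a call lost without any 1 of the 4 libraries (adjusted p from 0.062 to 0.135).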

How the data were processed

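RNA libraries of cultured dHeps were prepared with the NEBNext Ultra kit and sequenced in paired ends on an Illumina NovaSeq instrument, and the study mapped the reads to GRCm39. The authors deposited whole, unnormalized counts in one table and FPKM in another. For each gene, the ratio of count to FPKM and library total gave 1 length within 0.2% for 23816 of 23817 genes checked. Each table held 27141 genes, and the number of columns left unmapped was 0. The submitters' processing notes name featureCounts, Subread and DESeq2. The aligner, the annotation and whether strand was used in counting are not given in the sources used here, so overlapping and antisense genes and near-identical copies (Ces, Cyp, Gst, Mup, Orm, Ugt) are uncertain. The column names showed a group but not which sample, so libraries were lettered.

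Counts were tested with edgeR 4.0.16 in R 4.3.3 (TMM factors, filterByExpr with a minimum count of 10, glmQLFit and glmQLFTest) in 1 fit of all 13 libraries with 7 group means and 6 residual degrees of freedom. The study's methods name DESeq with a fold threshold, and edgeR took its place. P-values are two-sided and adjusted by Benjamini-Hochberg over all 19884 genes. The script was tested on simulated data. Alternatives were limma 3.58.1 on log2(FPKM + 1) and log2(FPKM + 0.1), DESeq2 1.42.0, other scaling and filters, a GC and length offset, the 4 libraries alone, and each library left out. Counts limit precision for low genes, and a floor of 3 counts per library covers counting error only, since no molecular identifiers were used.

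The comparison, gene lists and rules were chosen with earlier results of these data known. Named genes were the 12 called higher and the 12 called lower with the largest fold among those with at least 5 FPKM in the higher group (leaving out hepatocyte and macrophage markers and Cyp, Ugt, Mup, Gm and Rik symbols), up to 3 called members of each list in each direction with at least 1 FPKM, or the most abundant member where none was called, the genes near absent in a group, and all target genes. Some genes that met this rule are not reported here. Other members were added after their values were seen, as were the printed promoters. Symbol patterns for histone and tRNA synthetase genes and the older symbols of Cyr61 and Ctgf were corrected after values were seen. Gene positions are those of GENCODE on GRCm39, matched by identifier for 26905 genes, and promoter sequences are from RefSeq on GRCm38.p6.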

Additional observations from a re-analysis of the deposited data

How the results depend on the processing

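The 905 calls became 1371 with the DMSO and 5C libraries fitted alone, of which 901 were shared with the 905, and 1532 with an unadjusted p under 0.05. The count called higher, 331, became 575 in the fit of those 4 libraries, 219 with limma on log2(FPKM + 1), 697 with an unadjusted p under 0.05, and 153 to 213 when 1 library was left out. The other counts stayed within 1.5 times. Scaling by total counts alone moved the median of all genes by 0.08. Of 3108 values for single named genes, 2768 kept their direction and side of the threshold, 313 fell short of it, 27 passed it and 0 reversed.

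The median log2 fold change of the IGF binding proteins ranged from -0.24 (without 5C A) to 0.19 when a library was left out. That of the keratins turned to -0.15 in the fit of the 4 libraries, to -0.13 with 10 counts required in each, and ranged from -0.29 to 0.20 when a library was left out (-0.08 without DMSO A). That of the adhesion G protein-coupled receptors turned to 0.09 with the GC and length offset and ranged from -0.12 to 0.17 (without DMSO A) when a library was left out, and that of the myosin heavy chains from -0.48 to 0.25 (without 5C A, and 0.13 without DMSO B). The cause was not tested for any of these. No paired analysis was possible because the labels of DMSO and 5C share no replicate numbers and the columns carry none of them. With 2 libraries a group, 1 library can decide a call.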
